A study of Mus musculus with 7 samples.

Results

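The caveolins Cav1, Cav2 and Cav3, the caveolar coat protein Cavin1 and the EHD proteins Ehd1, Ehd2, Ehd3 and Ehd4 were followed in the left ventricle of old mice with and without endothelial nitric oxide synthase (eNOS). The 8 genes were taken as a named set, 8 of the 12393 genes named on the arrays, and every probe set that names one of them alone was used, 17 in all. The set was selected on measured values: it was proposed with the knockout against wild-type differences of these arrays in view, that of Ehd4 (0.88 on the log2 scale) among them. All differences between the groups for these 8 genes are therefore a description, and no test is drawn from them. The arrays, of the Affymetrix MOE430A design, measured total RNA of 1 left ventricle each. The knockout group held 3 male eNOS-/- mice, M4, M10 and M140, and the wild-type group held 4 male eNOS+/+ mice, M23, M125, M128 and M158, all aged 21 months. The labels state neither the strain nor how the gene was disrupted, and although a keyword names exercise, no label gives any mouse an exercise state.

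Caveolae are flask-shaped pits of the cell membrane, dense in endothelium and in heart muscle. Cav1 forms their scaffold in endothelial and most other cells and binds eNOS, which it holds inactive until calcium and calmodulin displace it. Cav2 assembles together with Cav1, Cav3 takes its place in muscle, and Cavin1 forms the coat without which caveolae are not made. The EHD proteins are ATPases related to dynamin that bend membranes. Ehd2 sits at the neck of caveolae, whereas Ehd1, Ehd3 and Ehd4 act mainly on endosomes and the return of membrane proteins to the cell surface.

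The promoters of Ehd4, Cav1 and Ehd2 are printed because the contrasts described below turn on these genes. Each is the 250 bases before a RefSeq start on GRCm38.p6, and capitals mark a GC box (GGGCGG or its reverse complement) or a CCAAT box (or its reverse complement). Ehd4 lies on the minus strand, at chr2:120154576-120154825. Cav1 lies on the plus strand, with the first of its listed starts at chr6:17306085-17306334, and Ehd2 on the minus strand, at chr7:15967536-15967785.
Ehd4: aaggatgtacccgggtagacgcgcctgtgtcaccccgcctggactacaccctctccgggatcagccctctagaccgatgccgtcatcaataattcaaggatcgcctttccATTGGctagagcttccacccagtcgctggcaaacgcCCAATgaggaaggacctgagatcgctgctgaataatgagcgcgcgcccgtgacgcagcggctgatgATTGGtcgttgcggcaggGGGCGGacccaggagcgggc
Cav1: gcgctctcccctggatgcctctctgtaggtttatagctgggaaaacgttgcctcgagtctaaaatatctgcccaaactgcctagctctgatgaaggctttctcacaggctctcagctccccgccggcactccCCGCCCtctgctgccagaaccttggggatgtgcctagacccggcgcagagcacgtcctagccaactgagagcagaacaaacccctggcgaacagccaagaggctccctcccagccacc
Ehd2: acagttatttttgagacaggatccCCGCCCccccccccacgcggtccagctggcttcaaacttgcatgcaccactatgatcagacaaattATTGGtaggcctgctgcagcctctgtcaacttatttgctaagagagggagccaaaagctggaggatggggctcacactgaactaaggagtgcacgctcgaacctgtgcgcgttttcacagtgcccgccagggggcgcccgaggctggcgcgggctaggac
The Ehd4 window held 1 GC box and 3 CCAAT boxes, the Cav1 window 1 GC box and 0 CCAAT boxes, and the Ehd2 window 1 of each. RefSeq gave 9 windows for 7 of the 8 genes, Cav1 and Cavin1 having more than 1 start each. Searched on both strands, 6 of the 9 held a GC box and 5 a CCAAT box, against 32.7% and 33.9% of all 32851 windows. In the 3 printed windows no GC box overlapped a CCAAT box. The 2 windows of Cavin1 overlap almost fully and are not independent. Cav1 and Cav2 are neighbours on chromosome 6, with 0 protein-coding genes between them.

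The deposited intensities had medians of 671 to 699 per array. They ended at a ceiling of 44145 to 45552, which no probe set of the 8 genes reached. Hybridization fell on 4 days that coincided with 4 chip lots: knockout M140 shared day 1 with wild-type M128, wild-type M125 was alone on day 2, knockout M4 and M10 made up day 3, and wild-type M23 and M158 made up day 4. Only day 1 held both groups, so that for the other arrays day and genotype cannot be told apart. Differences within day 1 rest on this 1 pair. M128 correlated less with each knockout array (Pearson r of 0.973 to 0.978 on the log2 scale) than the other wild-type arrays did (0.980 to 0.986). The 5' over 3' signal of Gapdh, a measure of RNA integrity, was 0.521 to 0.759 on the knockout arrays but 0.0978 and 0.34 on wild-type M23 and M158, against 0.683 and 0.777 on M128 and M125. The probe set of Nos3, the eNOS gene, read 1145, 1413 and 1135 in knockout mice M4, M10 and M140, against 791, 1163, 872 and 1058 in wild-type mice M23, M125, M128 and M158. It was not lower on the knockout arrays. Its place relative to the targeted exons is unknown here, and it does not check the labels. Markers of heart muscle were near the top of the scale in both groups: 6 of 8 cardiomyocyte genes sat at that ceiling on each of the 7 arrays.

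Among the 8 genes, Ehd4 differed most between the groups and read about 1.84 times as high in the knockout mean as in the wild-type mean. Ehd2 read lower on the knockout arrays of day 3 and at the wild-type level on the other knockout array. Cav1 and Cav2 read slightly lower in knockout ventricles, and for Cav3, Cavin1 and Ehd3 the sign varied with the probe set or the day. The 4 probe sets of Ehd1 read higher on the log2 scale by less than their SE. Of 13836 probe sets tested by limma, 0 passed an adjusted p of 0.05, which is 0% called, and 1636 had an unadjusted p under 0.05. Of the whole table, 74 probe sets passed the adjusted threshold without knockout M10 and 27 without knockout M140. Testing required a signal over the 40th percentile of an array on 3 or more arrays. All 8 genes had at least 1 tested probe set, 13 of the 17 in all, and these 13 exceeded that level on all 7 arrays. For the 13, limma's adjusted p, given only as a description, ran from 0.0769 for Ehd4 to 0.989 for 1 probe set of Ehd3. For 2 of the 13 the 3 knockout arrays lay wholly above the 4 wild-type arrays, Ehd4 and 1 probe set of Ehd3, where 4.97% of all tested probe sets did so. For 1 of the 13, Cav1, they lay wholly below, where 4.34% of all did. Fewer arrays separate more often: without M10 the groups did not overlap for 4 of the 13 and 21.8% of all tested probe sets, and without M140 for 6 of the 13 and 19.2% of all, against 3 of the 13 and 9.3% with every array. After quantile normalization 1 of the 13 did not overlap, against 12.1% of all.

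**Figure D1:**
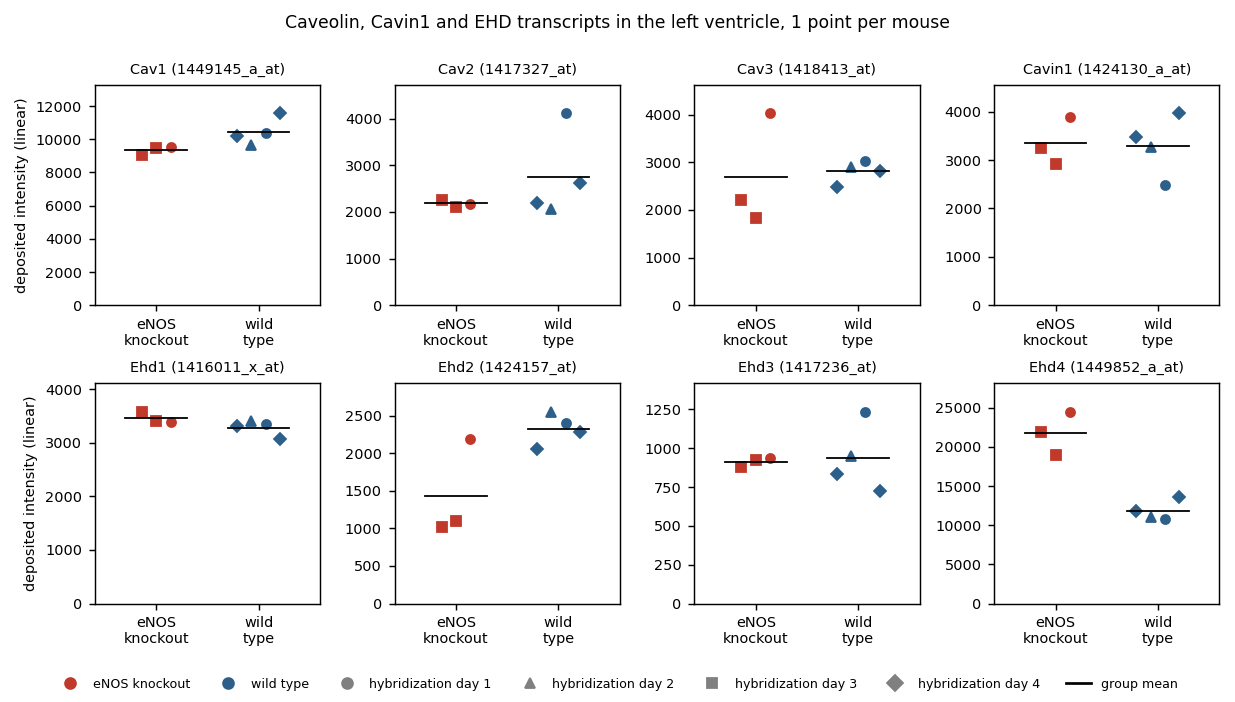
Deposited intensity (linear axis from 0) of the brightest tested probe set of each gene, with 1 point per mouse, eNOS knockout left of wild type, marker shape giving the hybridization day and black lines the group means. Ehd4 sits between 19009 and 24506 on the knockout arrays and between 10840 and 13606 on the wild-type arrays, and for Ehd2 the knockout mice of day 3 stand below all others.

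Cav1, the endothelial scaffold, read 9032, 9456 and 9523 in knockout mice M4, M10 and M140, against 10214, 9678, 10407 and 11554 in wild-type mice M23, M125, M128 and M158. Every knockout array lay below every wild-type array, but the gap between the groups was narrow: the lowest wild-type value was 1.02 times the highest knockout value. Cav1 averaged 9337 ± 266 in knockout mice (SD, n = 3) and 10463 ± 790 in wild-type mice (SD, n = 4). On the log2 scale the difference was -0.16 ± 0.10 (SE). Within day 1 the difference was -0.13. Of tested probe sets over the whole table, 36.1% differed by at least as much in either direction. In ventricle RNA, fewer cells of a type and less RNA per cell cannot be told apart. Endothelium is rich in Cav1. The summed signal of the 12 of 12 endothelial genes tested was 31083 to 33399 on the knockout arrays and 24342 to 33792 on the wild-type arrays. The lowest single value among these 12 was 526, where the lowest of any probe set per array was 86.5 to 92.3. Of the 12, 2 had an unadjusted p under 0.05 by limma, both higher (0 past adjustment), where 6.77% of all 8869 tested genes were higher. The part of endothelial content in the Cav1 value was not tested.

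Cav2, the partner of Cav1, had 2 probe sets, and both read lower on average in the knockout group, with overlapping groups. 1417327_at read 2250, 2115 and 2179 in knockout mice M4, M10 and M140, against 2198, 2068, 4110 and 2612 in wild-type mice M23, M125, M128 and M158. The high wild-type mean rested on M128, and the other wild-type mice spanned the knockout values. Its log2 difference was -0.28 ± 0.23 (SE), and within day 1, which holds M128, it was -0.91. Without M128 the difference of 1417327_at was -0.06. 1425955_at read 712, 965 and 715 in knockout mice M4, M10 and M140, against 1060, 880, 911 and 840 in wild-type mice M23, M125, M128 and M158. Here M128 did not stand out, and knockout M10 lay among the wild-type mice. The log2 difference was -0.22 ± 0.13 (SE), and within day 1 it was -0.34.

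Cav3, the muscle caveolin, read 2207, 1832 and 4025 in knockout mice M4, M10 and M140, against 2480, 2901, 3038 and 2818 in wild-type mice M23, M125, M128 and M158. The knockout mice lay on both sides of the wild-type range: M4 and M10 were the lowest of all 7 mice and M140 the highest. Cav3 averaged 2688 ± 1173 in knockout mice (SD, n = 3) and 2809 ± 238 in wild-type mice (SD, n = 4), and the log2 difference was -0.14 ± 0.25 (SE). The sign turned to 0.40 within day 1, the pair of M140 and M128. Without M140 the Cav3 difference was -0.48, and without M10 it was 0.09.

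Cavin1, the coat protein, was read above the filter by 1 of its 3 probe sets, 1424130_a_at, at 3241, 2910 and 3886 in knockout mice M4, M10 and M140, against 3469, 3269, 2482 and 3963 in wild-type mice M23, M125, M128 and M158. The groups overlapped throughout, and the log2 difference was 0.03 ± 0.19 (SE). Within day 1 the difference was 0.64, with wild-type M128 the lowest of all mice. The dim probe sets 1421431_at and 1453891_at stayed at 219 to 241 and 277 to 340 on the knockout arrays, against 229 to 242 and 299 to 312 on the wild-type arrays.

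Ehd4 acts at early endosomes and in the uptake of growth factor receptors. It read 21877, 19009 and 24506 in knockout mice M4, M10 and M140, against 11807, 11119, 10840 and 13606 in wild-type mice M23, M125, M128 and M158. The groups stood well apart, the lowest knockout array reading 1.397 times the highest wild-type array. Within a group the highest array read 1.29 times the lowest among knockout mice and 1.26 times among wild-type mice. Ehd4 averaged 21798 ± 2750 in knockout mice (SD, n = 3) and 11843 ± 1244 in wild-type mice (SD, n = 4). On the log2 scale the difference was 0.88 ± 0.12 (SE). Of all tested probe sets, 1.23% differed by at least as much in either direction. Within day 1 the difference was 1.18. Over the 20 alternatives and left-out arrays the Ehd4 difference ran from 0.79 without knockout M140 to the 1.18 of day 1. Its sign could not turn when arrays were left out, since the groups did not overlap. The filter and the trend setting do not enter the difference at all. A single probe set reads Ehd4 here, so that no second one bears on this value.

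Of the 8 macrophage markers, all tested, Fcgr3, Cd163, Csf1r and Cd68 read higher in knockout mice with an unadjusted p under 0.05 by limma (0 past adjustment). At that p, 6.77% of all 8869 tested genes were higher. The other 4 macrophage markers differed by -0.05 to 0.38 on the log2 scale, C1qa reading lower. The summed signal of the 8 was 23497 to 28234 on the knockout arrays and 17974 to 24708 on the wild-type arrays. The 7 fibroblast markers summed to 20921 to 59376 on the knockout arrays, with M10 lowest, and 26517 to 39670 on the wild-type arrays. The groups overlapped for both lists, and wild-type M128 was the highest of its group in each. Smooth muscle and pericyte markers, 6 of 7 tested, summed to 44429 to 51271 on the knockout arrays and 38039 to 48922 on the wild-type arrays. The 4 atrial markers summed to 47537 to 71833 on the knockout arrays and to 9349 to 74263 on the wild-type arrays. On knockout M4 and M140 the sum was mostly Nppa, at the ceiling with 44868 and 45540, where Myl7 read 1207 and 407. Nppa read higher on every knockout array than on any wild-type array, with a log2 difference of 1.80. Myl7, Myl4 and Sln differed by 0.34, -0.54 and -0.09, with overlapping groups. No marker of these lists was at 0 on any array, but no probe set was: the lowest value per array was 86.5 to 92.3. The part of these cells in the Ehd4 value was not tested. Without knockout M10 and wild-type M125, the mice with the most atrial signal, the Ehd4 difference was 0.94, and without wild-type M23 and M158 it was 0.98.

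The 3 tested genes whose deviations from their own mean lay closest to those of Ehd4 over the 7 arrays were Cdv3, Gars and Tmbim1, by root mean square difference on the log2 scale. The distances were 0.14, 0.15 and 0.15, against a median of 0.48 over all tested genes. Cdv3 read 19292, 14202 and 17854 in knockout mice M4, M10 and M140, against 7832, 7374, 8761 and 9875 in wild-type mice M23, M125, M128 and M158. Like Ehd4 it separated the groups on every array, with a log2 difference of 1.01. Gars, a transfer RNA synthetase for glycine, and Tmbim1, a membrane protein of lysosomes, differed by 0.77 and 0.79. Closeness in this sense follows the group difference and says nothing of a shared role.

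Ehd2, the EHD protein of the caveolar neck, gave a different picture. Its probe set 1424157_at read 1014, 1100 and 2186 in knockout mice M4, M10 and M140, against 2059, 2554, 2405 and 2289 in wild-type mice M23, M125, M128 and M158. Knockout M4 and M10 lay below every other mouse by a wide margin, whereas M140 lay within the wild-type range. Ehd2 averaged 1433 ± 653 in knockout mice (SD, n = 3) and 2326 ± 209 in wild-type mice (SD, n = 4), and the log2 difference was -0.78 ± 0.25 (SE). The low arrays were those of hybridization day 3, which held M4 and M10 alone. Within day 1, M140 differed from M128 by -0.14, and without M140 the Ehd2 difference was -1.12. Both arrays of day 3 lay below the other 5 for 6.48% of tested probe sets and above them for 7%. The members that did so were Cav1, Cav3 and this probe set of Ehd2, below, and 1 probe set of Ehd1, above.

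The other 2 probe sets of Ehd2 were dim and did not follow. 1424158_at read 385, 436 and 383 in knockout mice M4, M10 and M140, against 383, 391, 383 and 324 in wild-type mice M23, M125, M128 and M158. 1427729_at stayed at 115 to 121 on the knockout arrays and 104 to 146 on the wild-type arrays. Both lay under the 40th percentile on all 7 arrays, so that they bear little on the level of Ehd2. The genes closest to the Ehd2 pattern were Zfp617, Rraga and Nab1, at distances of 0.14, 0.15 and 0.17 against a median of 0.54. Rraga, a GTPase that couples amino acid supply to growth signalling, read 783, 866 and 1601 in knockout mice M4, M10 and M140, against 1856, 1749, 1601 and 1993 in wild-type mice M23, M125, M128 and M158. Rraga too was low on the arrays of day 3 and equal on the 2 arrays of day 1.

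**Figure D2:**
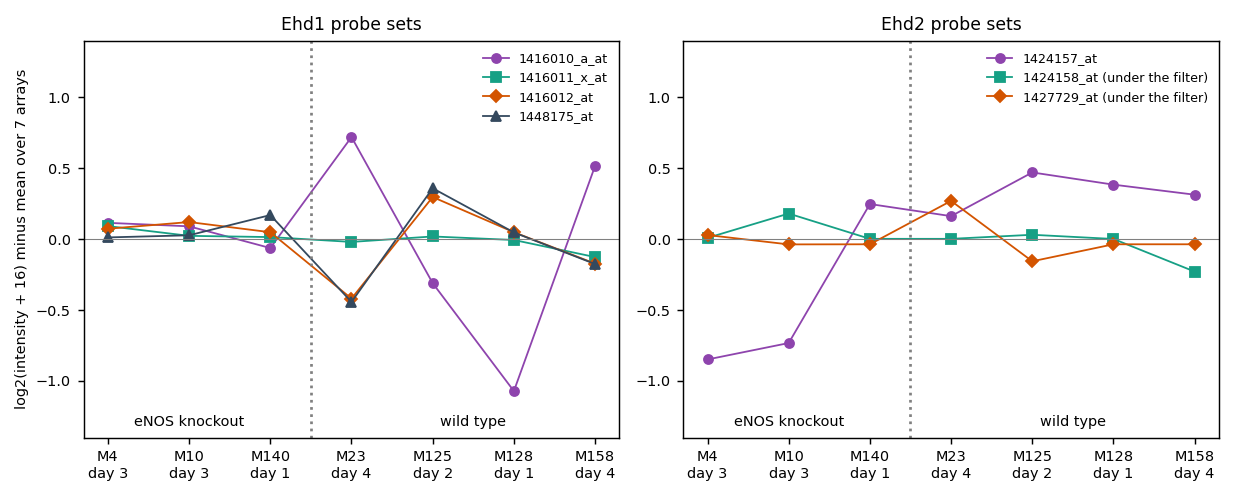
Deviation of log2(intensity + 16) from each probe set's own mean over the 7 arrays, knockout arrays left of the dotted line and wild-type arrays right of it. Lines only link points of 1 probe set. For Ehd1, 1416010_a_at is highest on wild-type M23 and lowest on wild-type M128, where 1416012_at and 1448175_at are lowest on M23, and for Ehd2 only 1424157_at is low on knockout M4 and M10.

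Ehd1, which drives recycling from endosomes to the surface, was read by 4 probe sets, all tested. The log2 differences were 0.08 to 0.14, each smaller than its SE of 0.11 to 0.40. The probe sets disagreed among the wild-type mice. 1416010_a_at read 2658, 2613 and 2348 in knockout mice M4, M10 and M140, against 4052, 1975, 1159 and 3516 in wild-type mice M23, M125, M128 and M158. The wild-type mice spanned 3.50-fold and enclosed all knockout values. The sign depends on the scale, since the knockout mean was 0.949 of the wild-type mean on the linear scale and the log2 difference was 0.08. 1448175_at read 1761, 1779 and 1966 in knockout mice M4, M10 and M140, against 1280, 2243, 1805 and 1544 in wild-type mice M23, M125, M128 and M158. Here M23 and M158 were the lowest mice, where they had been the highest on 1416010_a_at. 1416012_at, with 871 to 916 on the knockout arrays and 625 to 1037 on the wild-type arrays, followed 1448175_at. 1416011_x_at, whose suffix marks probes shared with other sequences, read 3392 to 3580 on the knockout arrays and 3075 to 3402 on the wild-type arrays. M23 and M158 were the arrays of day 4 and of the lowest Gapdh ratio, and the part of either in these readings was not tested. Both day 4 arrays lay above the other 5 for 8.3% of tested probe sets and below them for 8.85%, and 1 and 4 of the 13 tested member probe sets did so. Within day 1 the difference of 1416010_a_at was 1.01, and those of the other 3 were 0.00 to 0.12.

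Ehd3, which in the heart serves the delivery of membrane channels and exchangers, was read by 2 probe sets that did not show the same pattern. 1417235_at read 891, 1050 and 1029 in knockout mice M4, M10 and M140, against 883, 883, 792 and 720 in wild-type mice M23, M125, M128 and M158. The groups did not overlap, yet the lowest knockout value was only 1.01 times the highest wild-type value. The log2 difference was 0.27 ± 0.10 (SE), and within day 1 it was 0.37. 1417236_at read 876, 923 and 940 in knockout mice M4, M10 and M140, against 836, 953, 1235 and 725 in wild-type mice M23, M125, M128 and M158. Its groups overlapped, with a log2 difference of -0.01 ± 0.16 (SE), and within day 1 it was -0.39. The probe sets of Ehd3 thus differed in sign within the same pair of mice.

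**Figure D3:**
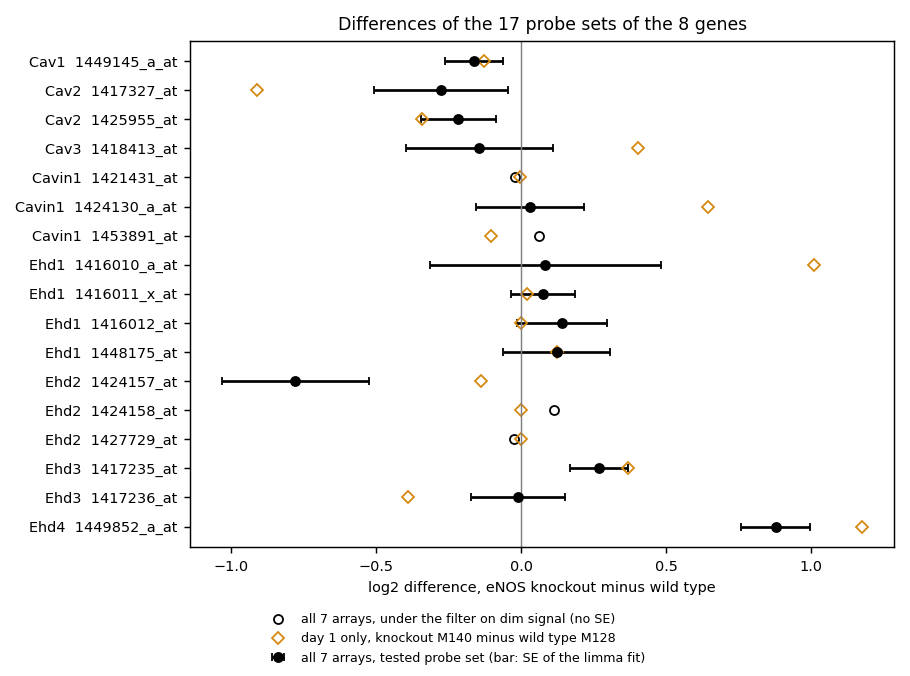
Log2 difference, eNOS knockout minus wild type, of all 17 probe sets over the 7 arrays (filled circles with the SE of the limma fit, open circles for the 4 under the filter) and within hybridization day 1 (diamonds, knockout M140 minus wild type M128, no replicate). Ehd4 is at 0.88 and 1.18, whereas Ehd2 1424157_at moves to -0.14 and Cav3 and Ehd1 1416010_a_at to 0.40 and 1.01 within day 1.

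The proteins that work with caveolins and EHD proteins were listed from their known roles, 55 genes in 4 lists. Of these, 39 were named on the arrays and 37 were tested, each by its brightest tested probe set. Some, such as Hsp90aa1, Ehbp1l1, Dmd, Dag1 and Sgcb, had further tested probe sets. A second one is given below for Flot2 only. Of the 37, 0 passed an adjusted p of 0.05 by limma, while 6 read higher, and 0 lower, with an unadjusted p under 0.05. Over all 8869 tested genes, 6.77% were higher and 5.4% lower at that p. The 6 became 3 without M4 and 3 without M140, where 3.29% and 5.68% of all genes were higher. The median log2 difference of the 37 was 0.16, against -0.003 over all tested genes. For 29 of the 37 the log2 difference was above 0. With array weights, 3 passed an adjusted p of 0.05: Rab11fip5, Hsp90aa1 and Dnm1 (adjusted p = 0.0372, 0.0393 and 0.0475). That setting called 4.57% of all tested genes. It gave knockout M4 a weight of 3.81, against 0.37 to 1.87 for the other arrays.

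The list for the coat and neck of caveolae also held flotillins, dynamins and EHD-binding proteins. It gave 11 tested genes of 13, with a median log2 difference of 0.33. Of these, 3 read higher with an unadjusted p under 0.05 (0 lower), and none of the 3 was a cavin. Flot2, a scaffold of membrane rafts, read 5771, 5874 and 6172 in knockout mice M4, M10 and M140, against 4083, 5021, 3436 and 4248 in wild-type mice M23, M125, M128 and M158. The groups did not overlap, and the log2 difference was 0.51 ± 0.15 (SE; adjusted p = 0.286). This was 1438164_x_at, again with shared probes, and the other tested probe set of Flot2, 1417544_a_at, differed by 0.02 with overlapping groups. Dnm1, a dynamin that cuts vesicles from the membrane, differed by 0.39 ± 0.12 (SE; adjusted p = 0.294). Ehbp1l1, named for its likeness to an EHD-binding protein, differed by 0.68 ± 0.27 (SE; adjusted p = 0.391). Among the cavins, Cavin2 differed by -0.21, Cavin3 by 0.16 and Cavin4, the muscle cavin, by 0.36, with adjusted p of 0.521, 0.583 and 0.481.

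Recycling partners of the EHD proteins gave 14 tested genes of 21, with a median of 0.15, and 1 read higher with an unadjusted p under 0.05 (0 lower). That 1 was Rab11fip5, an effector of the recycling GTPase Rab11, which read 3281, 2612 and 2129 in knockout mice M4, M10 and M140, against 907, 1605, 1363 and 1564 in wild-type mice M23, M125, M128 and M158. All knockout mice lay above all wild-type mice, a log2 difference of 0.98 ± 0.23 (SE; adjusted p = 0.218), and within day 1 it was 0.64. Myof, a ferlin that Ehd2 binds, and Numb, an endocytic adaptor, differed by 0.16 and 0.22 (adjusted p = 0.522 and 0.542). The sodium-calcium exchanger Slc8a1, whose delivery in heart cells involves Ehd3, differed by 0.10 (adjusted p = 0.670).

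Proteins that bind or modify eNOS gave 5 tested genes of 11, with a median of 0.00, and 2 read higher with an unadjusted p under 0.05 (0 lower). Hsp90aa1, a chaperone that binds eNOS, read 10761, 6469 and 9243 in knockout mice M4, M10 and M140, against 6344, 4542, 6911 and 4818 in wild-type mice M23, M125, M128 and M158. Knockout M10 lay within the wild-type range, and the log2 difference was 0.63 ± 0.22 (SE; adjusted p = 0.341). Nos3 itself was the other, at 0.35 ± 0.15 (SE; adjusted p = 0.420). Lypla1, a thioesterase that removes palmitate from proteins, differed by -0.39 (adjusted p = 0.540).

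The muscle partners of Cav3 gave 7 tested genes of 10, with a median of 0.16 and 0 at an unadjusted p under 0.05 in either direction. The 3 with the smallest p were Dmd, Dag1 and Sgcb, which encode dystrophin, dystroglycan and a sarcoglycan of the complex that ties the muscle membrane to the matrix. They differed by 0.27, 0.18 and 0.16 (adjusted p = 0.591, 0.640 and 0.644). For Dag1 and Sgcb the groups did not overlap, the knockout arrays reading higher by small margins. Of all tested probe sets, 4.97% lay wholly above in this way. Dag1 read 10934 on wild-type M128 and 14466 to 14816 on the other wild-type arrays, against 15284 to 15540 on the knockout arrays.

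**Figure D4:**
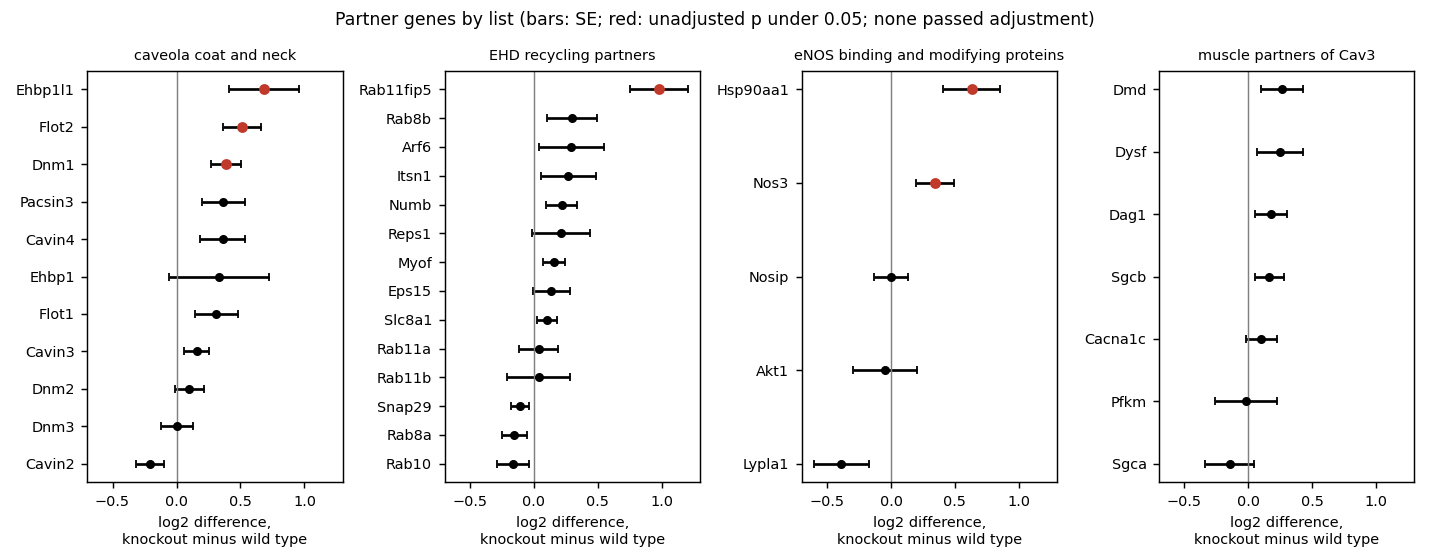
Log2 difference, eNOS knockout minus wild type, of the 37 tested partner genes in 4 lists, with the SE of the limma fit. Red points have an unadjusted p under 0.05 and all of these lie above 0, with Rab11fip5 highest at 0.98, and none passed an adjusted p of 0.05.

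Markers of the other cell types that a ventricle sample can hold were read on the same arrays. Adipocytes are rich in Cav1 and Cavin1, and 2 of 7 of their markers were tested, with sums of 35509 to 38825 on the knockout arrays and 36722 to 43268 on the wild-type arrays. The groups overlapped. The sum was mostly Fabp4, at 33460 to 37432 on the knockout arrays and 35210 to 41822 on the wild-type arrays. Retn, the other, read 1306 to 2049 and 1446 to 1595. Adipoq, Cidec and Lep were named on the arrays but lay under the filter, so that the list rested on Fabp4. Cardiomyocyte markers summed to 316696 to 322685 on the knockout arrays and 311084 to 319980 on the wild-type arrays, but 6 of the 8 were at the ceiling and their sum can hardly differ. Of the other 2, Ryr2, the calcium release channel, differed by -0.01 on the log2 scale. Actn2, the alpha-actinin of the sarcomere, read 31082 to 35382 on the knockout arrays and 22350 to 30130 on the wild-type arrays. Its groups did not overlap, and the log2 difference was 0.36 ± 0.10 (SE; limma's adjusted p = 0.285). The mesothelial list rested on 2 tested markers of 5, at sums of 1353 to 2039 on the knockout arrays and 1502 to 1722 on the wild-type arrays. The red blood cell list also rested on 2 of 5, which summed to 4686 to 9480 on the knockout arrays and 3371 to 4188 on the wild-type arrays, with no overlap. The part of these cells in the values of the 8 genes was not tested.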

How the data were processed

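Total RNA of 7 mouse left ventricles was measured on MOE430A arrays, 1 per mouse. The authors' deposited intensities are linear and had nearly equal medians; their software and scaling are not given in the labels or headers. The experiment sheets, per the file headers, hold other information, from which only hybridization days and chip lots were taken. The Gapdh ratios were computed from the control probe sets among the deposited intensities. A platform table named 1 gene for 20380 of 22626 probe sets (691 several, 1555 none), and 20351 matched RefSeq (GRCm38.p6).

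Values were taken as log2(intensity + 16), which understates changes of dim probe sets. Knockout minus wild type was fitted with limma 3.58.1 (R 4.3.3; lmFit, eBayes with trend, two-sided) on 13836 probe sets, with Benjamini-Hochberg adjustment over them all. The fit was tested on simulated data. All adjusted p-values are limma's and set the group difference against the spread between these arrays. The main fit does not separate hybridization day from genotype. No array duplicated another (at most 7.18% of values equal). The number of arrays, 3 and 4, limits the precision.

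The members and lists were chosen with earlier results of these data known. Named were all members, Nos3, the 3 smallest p of each of the 4 partner lists, the 3 nearest genes of the 2 members with the widest range, and markers beside a result. The cavins and Slc8a1 were picked after seeing their values. Alternatives were the offset (1 or 64), quantile normalization, normexp (offset 50), no filter or the 60th percentile, no trend, array weights, day as fixed or random block, day 1 alone, and leaving out each array or M10 with M125. Leaving out M23 with M158 was added after seeing the data.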

Additional observations from a re-analysis of the deposited data

Results flagged for a closer look

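In 3 of 29 wild-type groups of 4 arrays that were checked, 1 array stood apart from the other 3 by Dixon's criterion, which chance meets in about 1 of 20 groups. Dag1 (1426778_at) read 10934 on wild-type M128, against 14466 on the nearest wild-type array. The dim Ehd2 probe set 1424158_at read 324 on wild-type M158, against 383 on the nearest. The dim Cavin1 probe set 1453891_at read 312 on wild-type M23, where the other 3 wild-type arrays held the identical value of 299.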

How the results depend on the processing

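No paired analysis was possible because no mouse number occurs in both groups. Of 340 recomputed differences of the 17 member probe sets, 322 moved by less than the spread between arrays and 18, in 9 probe sets, by more. These are not independent checks. The filter settings and the fit without trend cannot change a difference, and day as a fixed block repeats the values of day 1 alone. Of the 340, 24 had the opposite sign and 4 were 0, all of values with no call. The Ehd4 difference was 1.18 within day 1 alone, which hybridization day as a fixed block repeats, and 0.79 to 0.97 without each array. Over the whole table, the probe sets past an adjusted p of 0.05 numbered 619 with array weights (4.47%), 1 with the 60th percentile, 1 with day as a fixed block, 2 without M10 and M125, 1 without M23 and M158, and 0 to 74 without each array (74 without M10, 27 without M140). Of the 13 tested member probe sets, chosen with these differences known, 1 passed with array weights (Ehd4) and 0 to 1 without each array (Ehd4 without M10, Ehd2 without M140). Array weights leaned on knockout M4, and without M4 limma's adjusted p for Ehd4 was 0.426. Of all 17, the groups did not overlap for 6 without M10 and M125 (27.6% of all tested probe sets), 6 without M23 and M158 (28%), and 3 to 7 without each array (5 without M10, 7 without M140; 11.8% to 21.8% of all). Partner genes higher at an unadjusted p under 0.05 numbered 10 with array weights, where 12.9% of all tested genes were higher. With day as a fixed block they numbered 11 (8.69% of all), and without M23 and M158 also 11 (7.37% of all). Without each array they numbered 3 to 8 (3 without M4 or M140), against 3.29% to 6.95% of all. Lower ones numbered 2 with array weights (10.9% of all), 2 with day as a fixed block (7.33%) and 1 without M10 and M125 (4.17%). They numbered 1 without M23 and M158 (5.75%) and 0 to 1 without each array (2.86% to 5.98%). With array weights 3 partner genes passed an adjusted p of 0.05, where 4.57% of all tested genes did. The causes were not tested. The 4 dim member probe sets limit what can be said of Ehd2 and Cavin1.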
